A study of Mus musculus with 12 samples.

Results

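Inguinal white adipose tissue (iWAT) of mice with and without BAF60a in adipocytes was profiled on 12 arrays at room temperature (RT) and after chronic cold, and the question taken up here is which genes answered the cold differently in the 2 genotypes. For each gene the cold response of the knockout, AKO cold minus AKO RT, was set against that of its control, flox cold minus flox RT. The difference between both responses is the interaction, on the log2 scale of the deposited signals, so that a positive value means a larger rise or a smaller fall in AKO. All 12 arrays of the series entered, 3 in each of the 4 groups that the sample titles give, and 22180 genes were tested.

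The flox mice carry Baf60a flox/flox alleles and keep BAF60a. The AKO mice carry the same alleles with an Adiponectin-Cre transgene, so that the gene is lost in adipocytes while other cells of the fat pad retain it. Mice of both genotypes, 9 months old by the labels, ate chow and were either held at 22 °C or kept for 7 days at 10 °C after the temperature had been lowered step by step. RNA of 1 to 2 mice was pooled per array, and the sex of the mice was not given in the sources used here. The methods give a younger age for mice in cold acclimation than the labels.

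White fat stores triglyceride, but the inguinal pad can also form beige adipocytes, which are rich in mitochondria and burn fuel for heat. Their hallmark is UCP1, a protein of the inner mitochondrial membrane that lets protons return without making ATP. BAF60a, encoded by Smarcd1, is a subunit of the BAF (SWI/SNF) complexes, which use ATP to shift nucleosomes and open chromatin to transcription factors. Cold acts on this tissue largely through sympathetic nerves, whose noradrenaline raises cyclic AMP in adipocytes, starting lipolysis and the transcription of the thermogenic genes.

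Differences were tested with limma in 1 fit over the 12 arrays, and p-values were adjusted over all genes of a comparison by the Benjamini-Hochberg method. The interaction passed an adjusted p of 0.05 in 4 genes, Ucp1, Slc27a2, Cox7a1 and Acot11. In flox mice the cold response itself passed in 2 genes, Cox8b and Chchd10. The 250 bases before the start of each of these genes, from RefSeq on build GRCm38.p6, are shown because they place genes with a genotype-dependent cold response beside genes that rose in both genotypes. Capitals mark AGGTCA (or TGACCT on the other strand), the hexamer that nuclear receptors bind, TGACG (or CGTCA), the core of the cyclic AMP response element, and CCAAT (or ATTGG), the CCAAT box. These occur in 14.0%, 17.8% and 33.8% of the 32851 promoter windows of the same length in the RefSeq table. Matches are a description of the letters and were not tied to binding.
Ucp1 promoter (chr8:83290098-83290347, plus strand): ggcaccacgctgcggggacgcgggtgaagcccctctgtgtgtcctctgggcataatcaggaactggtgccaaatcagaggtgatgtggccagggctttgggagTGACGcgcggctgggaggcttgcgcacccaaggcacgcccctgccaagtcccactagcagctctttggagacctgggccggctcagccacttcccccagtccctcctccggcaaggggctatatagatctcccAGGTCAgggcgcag
Slc27a2 promoter (chr2:126552774-126553023, plus strand): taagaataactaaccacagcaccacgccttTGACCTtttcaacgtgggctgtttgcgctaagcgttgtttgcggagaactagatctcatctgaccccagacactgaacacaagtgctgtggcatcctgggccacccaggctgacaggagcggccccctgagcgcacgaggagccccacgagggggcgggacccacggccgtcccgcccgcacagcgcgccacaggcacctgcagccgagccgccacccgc
Cox7a1 promoter (chr7:30183921-30184170, plus strand): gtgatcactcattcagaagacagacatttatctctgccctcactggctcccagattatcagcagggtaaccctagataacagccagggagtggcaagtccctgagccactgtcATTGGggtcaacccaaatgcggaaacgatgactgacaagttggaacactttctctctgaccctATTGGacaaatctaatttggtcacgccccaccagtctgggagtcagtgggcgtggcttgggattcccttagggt
Acot11 promoter (chr4:106805008-106805257, minus strand): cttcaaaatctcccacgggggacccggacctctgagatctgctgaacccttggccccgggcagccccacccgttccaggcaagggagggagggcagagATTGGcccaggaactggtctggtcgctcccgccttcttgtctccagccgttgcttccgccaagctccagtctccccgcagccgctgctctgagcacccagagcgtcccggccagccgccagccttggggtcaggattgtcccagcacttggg
Cox8b promoter (chr7:140900447-140900696, minus strand): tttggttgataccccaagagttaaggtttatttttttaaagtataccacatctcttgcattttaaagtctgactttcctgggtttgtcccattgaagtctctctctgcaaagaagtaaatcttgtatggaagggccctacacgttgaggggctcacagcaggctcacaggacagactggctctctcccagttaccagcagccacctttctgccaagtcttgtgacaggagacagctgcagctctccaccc
Chchd10 promoter (chr10:75932880-75933129, plus strand): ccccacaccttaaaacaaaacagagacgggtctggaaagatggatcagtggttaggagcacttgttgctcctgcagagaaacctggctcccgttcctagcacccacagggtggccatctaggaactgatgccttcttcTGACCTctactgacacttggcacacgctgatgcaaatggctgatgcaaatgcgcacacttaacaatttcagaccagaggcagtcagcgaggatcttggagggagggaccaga
The Ucp1 window held 1 AGGTCA and 1 TGACG, the Slc27a2 and Chchd10 windows 1 AGGTCA each, Cox7a1 2 CCAAT boxes, Acot11 1 and Cox8b none of the 3 motifs. For Acot11, which has 2 starts in the table, the more upstream one is shown.

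The signals are log2 values after robust multi-array averaging (RMA), a scale on which a difference of 1 is a doubling of signal. The array medians ran from 3.57 to 3.71, and arrays of the same group correlated across genes at r = 0.981 to 0.987. Adipocyte genes were high on every array: Adipoq, Lep, Retn, Plin1, Fabp4, Cidec, Lipe and Pparg read 7.91 to 12.19, all above the 90.2th percentile of mean signal. The targeted gene, Smarcd1, read 6.27 to 6.91 on the 6 flox arrays and 5.89 to 6.37 on the 6 AKO arrays. It was 0.44 lower in AKO at RT and 0.25 lower in the cold, with adjusted p of 0.782 and 0.915 in limma, and the ranges overlapped, so the deletion was not resolved in whole tissue by this transcript cluster, and the labels could not be checked by it. Whether its probes lie in the deleted part is not given in the sources used here.

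Several arrays stood apart from the rest. On flox RT arrays 1 and 2 a set of 19 genes read more than 1 log2 unit above each of the other 10 arrays, among them genes of inflammation, the interferon response and protein stress. Ccl2, a chemokine for monocytes, read 7.32, 8.11 and 4.64 in flox at RT and 4.59 to 5.42 on the other 9 arrays. Hspa1a, a heat-inducible chaperone, read 7.12, 6.80 and 4.69 in flox at RT and 4.16 to 5.08 elsewhere. Both were named after their values were seen. AKO RT array 2 and AKO cold array 3 shared 29 genes that stood above the other 10 arrays by the same margin, and 25 skeletal muscle markers averaged 2.36 and 2.92 log2 units above their 12-array mean there, against -1.75 to 1.19 on the other arrays. Interactions of genes and median interactions of lists that moved by over 1.5 times without flox RT arrays 1 and 2 are given both ways below. Cold responses and counts are mostly given on all arrays only, and some of these moved as well.

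Ucp1 had the largest interaction of the 4. Ucp1 read 2.63, 2.92 and 2.64 in flox at RT, 4.94, 5.72 and 3.70 in flox in the cold, 3.10, 2.61 and 2.79 in AKO at RT and 10.92, 10.41 and 10.59 in AKO in the cold. All 3 flox arrays in the cold lay above all 6 arrays at RT, and all 3 AKO arrays in the cold lay above every other array, the highest of which read 5.72. In whole tissue, more cells that make a transcript and more transcript per cell cannot be told apart. Cold minus RT was 2.06 ± 0.38 (SE, n = 3 per group) in flox, a 4.16-fold difference that missed the threshold (limma adjusted p = 0.10), and 7.81 in AKO, a 224-fold rise (adjusted p = 2.6e-06). The interaction was 5.75 ± 0.53 (SE), a 53.8-fold difference with a 95% interval of 4.59 to 6.91 on the log2 scale and an adjusted p of 0.00188. At RT AKO minus flox was 0.10 (adjusted p = 0.980). With flox RT arrays 1 and 2 left out, a fit that keeps a single flox RT array, the interaction was 5.66 and its adjusted p 0.0647.

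Slc27a2 encodes an acyl-CoA synthetase and transporter of very long chain fatty acids. Slc27a2 read 2.35, 2.99 and 2.34 in flox at RT, 2.50, 2.13 and 2.02 in flox in the cold, 2.49, 2.61 and 2.39 in AKO at RT and 4.94, 5.07 and 5.54 in AKO in the cold. Its 3 AKO cold arrays stood above the other 9, which overlapped one another between 2.02 and 2.99. The cold change was -0.34 ± 0.20 (SE) in flox and 2.69 in AKO, where it was 6.43-fold (adjusted p = 9.53e-05). The interaction was 3.03 with a 95% interval of 2.40 to 3.66 and an adjusted p of 0.00188. The signals outside AKO cold lay below 3.64, the median of the whole table. A second, dimmer cluster of this gene with a mean signal of 1.53 gave an interaction of 0.29.

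Cox7a1 encodes the subunit VIIa isoform of cytochrome c oxidase that is found in heart, skeletal muscle and brown fat. Cox7a1 read 4.20, 4.24 and 4.40 in flox at RT, 4.40, 4.84 and 4.35 in flox in the cold, 4.30, 4.70 and 4.97 in AKO at RT and 7.54, 7.43 and 7.54 in AKO in the cold. Again the AKO cold arrays lay above the other 9, and no other group separated from the rest. The gene rose by 2.85 in AKO (adjusted p = 1.54e-05) and had 0.25 ± 0.17 (SE) in flox (adjusted p = 0.699), giving an interaction of 2.59, or 6.04-fold, with an interval of 2.07 to 3.12 (adjusted p = 0.00188). Muscle markers averaged -1.75 to 2.92 over the same 3 AKO cold arrays, and Cox7a1 read 7.43 to 7.54 there. With the muscle score as a covariate the interaction was 2.59 and its adjusted p 0.00299. Whether muscle tissue in the samples contributed to the Cox7a1 signal was not tested.

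Acot11 encodes an acyl-CoA thioesterase, also called brown fat-inducible thioesterase. Acot11 read 3.81, 3.77 and 4.15 in flox at RT, 4.06, 4.26 and 4.01 in flox in the cold, 4.06, 4.38 and 3.91 in AKO at RT and 6.37, 6.17 and 6.40 in AKO in the cold. The lowest AKO cold array read 6.17 and the highest of the other 9 read 4.38. The interaction was 1.99 with an interval of 1.54 to 2.44 (adjusted p = 0.0035), from a rise of 2.19 in AKO (adjusted p = 3.66e-05) and an estimate of 0.20 in flox (adjusted p = 0.726). Without flox RT arrays 1 and 2, Slc27a2, Cox7a1 and Acot11 each had an adjusted p of 0.0413. Without AKO RT array 2 and AKO cold array 3 the interactions were 5.66 for Ucp1, 2.91 for Slc27a2, 2.60 for Cox7a1 and 2.08 for Acot11, with adjusted p of 0.024 to 0.0275.

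These 4 genes were 0.0180% of those tested, and no gene was called with a negative interaction. Without flox RT array 3, which leaves the 2 flox RT arrays with high inflammatory genes, 13 genes were called. Before adjustment, 554 genes (2.50%) had a positive interaction with p under 0.05 and 507 (2.29%) a negative one, and 51.6% of all interactions were positive. The median standard error of an interaction was 0.213, against 0.151 for a cold response within 1 genotype, so that the same difference is measured less precisely as an interaction.

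**Figure D1:**
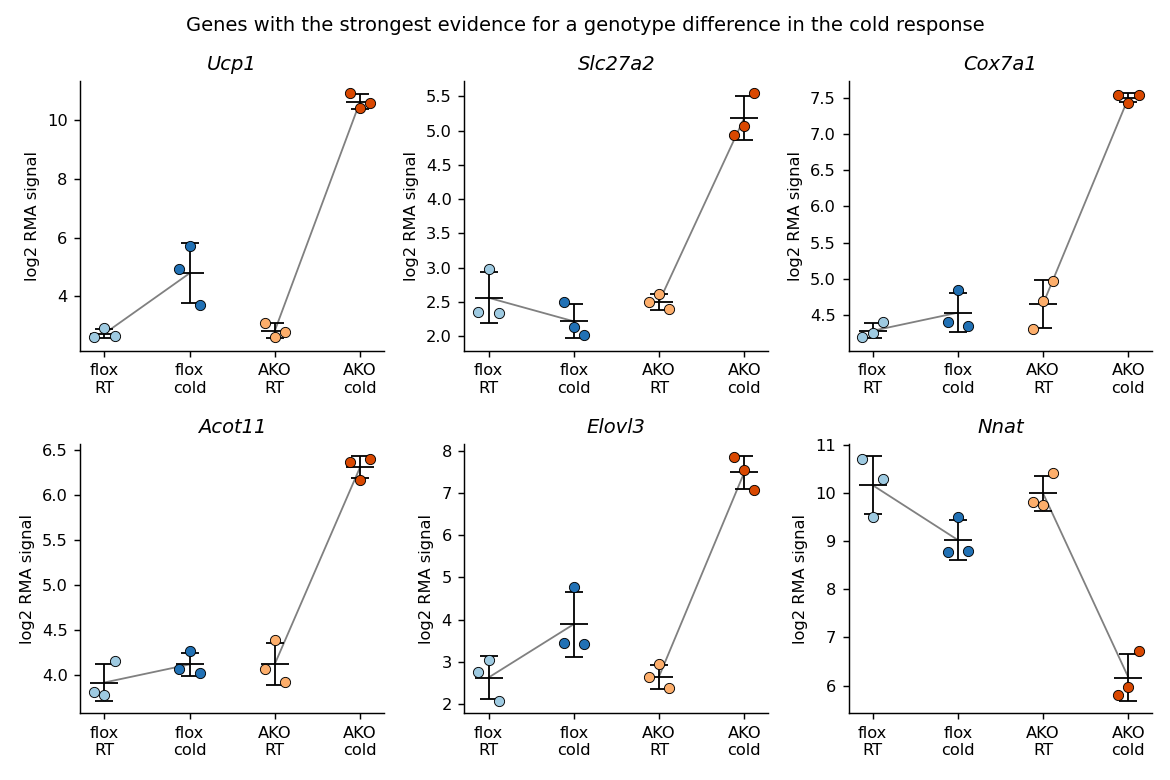
Signals (log2 RMA, vertical axis) of 6 genes on each of the 12 arrays, grouped by genotype and temperature. Dots are arrays, black marks the mean with its SD (n = 3), and grey lines join RT to cold within a genotype. The AKO cold dots stand above the other 9 arrays for Ucp1, Slc27a2, Cox7a1, Acot11 and Elovl3, and below them for Nnat.

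Elovl3 came next among annotated genes. It encodes an elongase of long chain fatty acids that is strongly cold-inducible in brown fat. Elovl3 read 2.76, 3.04 and 2.06 in flox at RT, 3.45, 4.78 and 3.43 in flox in the cold, 2.64, 2.93 and 2.36 in AKO at RT and 7.85, 7.55 and 7.07 in AKO in the cold. It rose 28.8-fold in AKO (adjusted p = 9.09e-05), and the flox estimate was 2.41-fold (adjusted p = 0.277). The interaction was 3.58 with an interval of 2.47 to 4.69, larger than that of Slc27a2 or Cox7a1, but with an SE of 0.51 it missed the threshold (adjusted p = 0.0563). The flox cold arrays differed among themselves, and without the highest of them, array 2, the interaction was 4.03 with an adjusted p of 0.00475. That value was the largest of 12 fits that each left out 1 array. These fits gave interactions of 3.35 to 4.03 with adjusted p of 0.00475 to 0.260, and 2 of them called Elovl3.

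Gm14057, a predicted gene of no stated function named after its values were seen, had the same adjusted p of 0.0563 in the other direction. Gm14057 read 4.24, 4.13 and 3.64 in flox at RT, 4.89, 4.63 and 4.36 in flox in the cold, 4.27, 4.38 and 4.34 in AKO at RT and 3.36, 3.34 and 3.25 in AKO in the cold. The AKO cold arrays lay below the other 9. It fell in AKO by 1.02 (adjusted p = 0.0189), and the flox estimate was 0.62 (adjusted p = 0.249).

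A list of 30 genes of thermogenic and beige adipocytes was measured for 28 members. Of these, 4 passed the interaction test, all upward, against 0.0180% of all genes. These 4 among a total of 14 had an unadjusted p under 0.05, also all upward, against 2.50% of all genes. The members were chosen with earlier results of these data known, which can raise every count of this list. The counts are therefore a description and not a test of enrichment. Positive estimates were found for 23 of 28, with a median of 0.54 against 0.01 over all genes tested. The median cold response of the list was 0.24 in flox and 0.97 in AKO. In AKO 13 members rose past the threshold, against 0.379% of all genes, and in flox 2 did, against 0.00902%. On 17 of the 28 the 3 AKO cold arrays lay above all other 9 arrays, and on none below, where the same held for 1.53% and 0.875% of all genes. The mean of the list per array, relative to its 12-array mean, was -0.61 to -0.56 in flox at RT, -0.36 to -0.28 in AKO at RT, -0.35 to 0.02 in flox in the cold and 1.03 to 1.14 in AKO in the cold.

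Below the 4 called genes the members differed in pattern. Pdk4, the kinase that shuts off pyruvate dehydrogenase and so spares glucose, read 7.61 to 8.01 in AKO at RT and 9.73 to 10.24 in the cold, a 4.49-fold rise (adjusted p = 0.000448). Its flox values were 6.88 to 7.49 at RT and 7.79 to 8.30 in the cold, and the interaction was 1.43 (adjusted p = 0.657). Otop1, a proton channel, read 4.02, 4.28 and 4.86 in AKO at RT and 6.94, 6.67 and 7.08 in the cold. In flox it read 4.11, 4.57 and 5.25 and then 5.10, 5.84 and 5.47, for an interaction of 1.68 (unadjusted p = 0.00154, adjusted p = 0.844). Kng2, which encodes a kininogen, read 4.91 to 5.01 in AKO in the cold against 2.13 to 2.94 on the flox arrays and 4.03, 2.66 and 3.79 in AKO at RT, an interaction of 1.80 (adjusted p = 0.844).

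Cidea, which governs lipid droplet fusion, differed between genotypes at both temperatures and rose in AKO. Cidea read 6.36, 6.30 and 7.05 in flox at RT, 7.66, 8.04 and 7.35 in flox in the cold, 7.91, 8.23 and 8.16 in AKO at RT and 10.17, 10.08 and 10.15 in AKO in the cold. The groups did not overlap except for flox cold and AKO RT. It was 1.53 higher in AKO at RT (adjusted p = 0.0159) and 2.45 higher in the cold (adjusted p = 0.000168), and its interaction was 0.92 with an interval of 0.28 to 1.56 (adjusted p = 0.978), or 1.39 without flox RT arrays 1 and 2. Dio2, the deiodinase that makes active thyroid hormone, rose in AKO by 2.40 (adjusted p = 0.00269) and had 1.26 in flox (adjusted p = 0.189). Its interaction was 1.14 with an interval of 0.27 to 2.02, and AKO minus flox passed the threshold neither at RT (-0.21, adjusted p = 0.945) nor in the cold (0.94, adjusted p = 0.436).

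Of the receptors and coactivators in the list, Ppara, the nuclear receptor for fatty acids, read 4.59 to 5.04 in AKO at RT and 5.66 to 6.21 in the cold, a rise of 1.23 (adjusted p = 0.0166). It read 4.52 to 4.77 in flox in the cold, and the interaction was 0.85 (unadjusted p = 0.00921). Ppargc1a, the coactivator PGC-1α, read 7.02, 6.14 and 6.82 in AKO at RT and 7.94, 7.44 and 7.68 in the cold, overlapping the flox range of 7.00 to 7.86. Its interaction was 0.80 with an interval of 0.02 to 1.58 (adjusted p = 0.978). Letmd1, a mitochondrial protein needed for UCP1-dependent heat production in mouse brown fat, read 8.75, 8.80 and 8.77 in AKO in the cold and 7.71 to 8.22 on the other 9 arrays (interaction 0.75, adjusted p = 0.844).

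**Figure D2:**
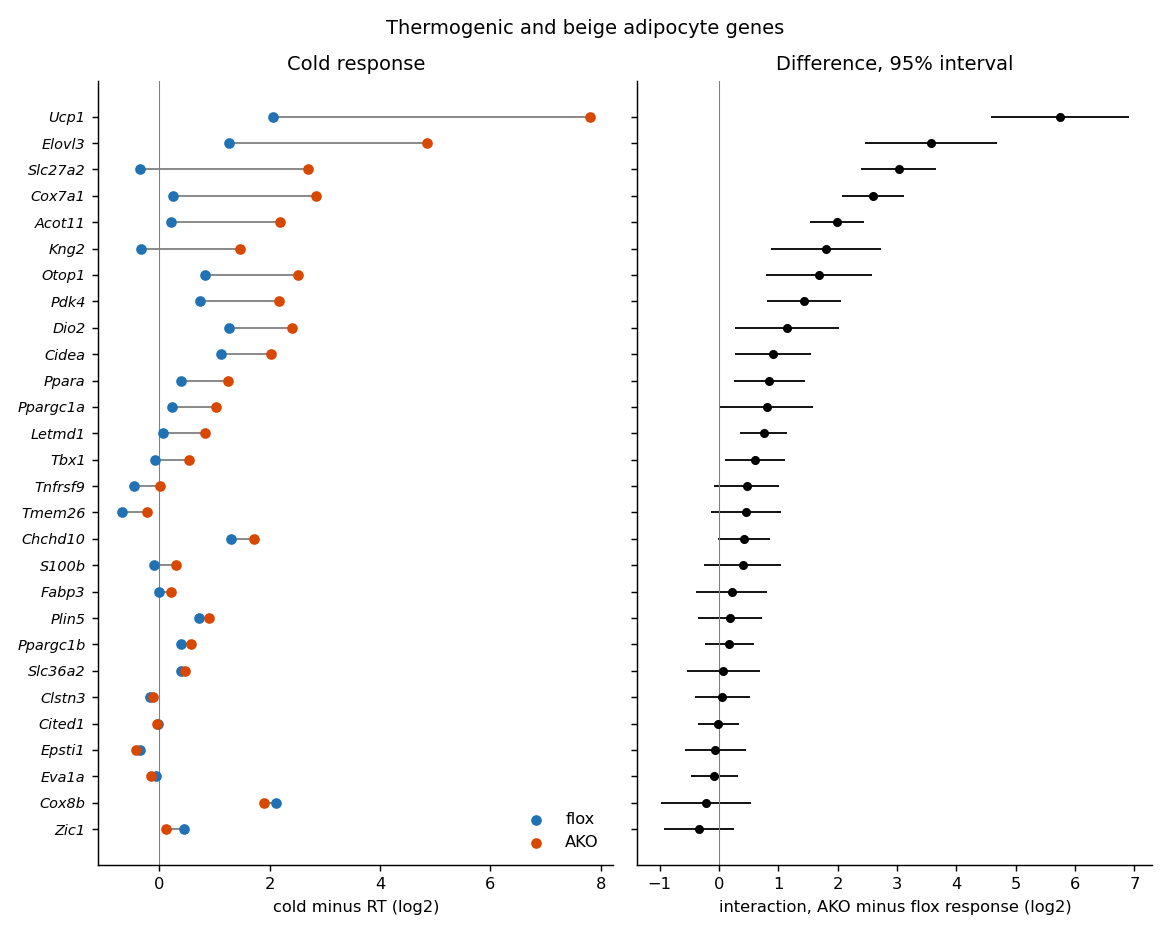
The 28 measured thermogenic and beige adipocyte genes, ordered by interaction. Left, cold minus RT (log2) in flox and AKO joined by a line; right, the interaction (AKO minus flox response, log2) with its 95% interval. Of the 28 estimates 23 lie right of 0, from Ucp1 at 5.75 downward, and Zic1 is lowest at -0.33.

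Among 36 regulators of adipose thermogenesis the direction was not shared: 16 interactions were positive and the median was -0.10. An unadjusted p under 0.05 was found for 5 upward and 1 downward, against 2.50% and 2.29% of all genes. Of those upward, Ppara and Ppargc1a are also in the thermogenic list, and Nr4a1 and Nr4a3 in that of immediate early genes. The list's median was -0.0018 with 18 positive when flox RT arrays 1 and 2 were left out. Rxrg, a partner of PPAR receptors, read 5.58 to 5.74 in AKO in the cold and 4.75 to 5.38 elsewhere (interaction 0.54, adjusted p = 0.978). Esrra, an orphan nuclear receptor that controls mitochondrial genes, was the negative one at -0.45 (adjusted p = 0.978), with 0.44 in flox and -0.01 in AKO, and was -0.29 without those arrays. Prdm16, which specifies brown and beige identity, read 5.40 to 6.19 on all 12 arrays, with an interaction of -0.33 and an interval of -0.94 to 0.28.

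Genes that burn fuel in mitochondria had positive median cold responses in both genotypes. For 71 genes of oxidative phosphorylation the median response was 0.33 in flox and 0.40 in AKO, and the median interaction 0.07, with 43 positive. For 29 genes of fatty acid oxidation the medians were 0.40 and 0.47, with an interaction of 0.15 and 24 positive. The 30 genes of the tricarboxylic acid cycle and pyruvate oxidation gave 0.39, 0.50 and 0.10. Genes called upward in AKO numbered 9, 6 and 6, against 0.379% of all genes. Cox7a1 was the 1 gene of these lists called in the interaction. With flox RT arrays 1 and 2 left out the 3 median interactions were 0.13, 0.19 and 0.26, with 56, 26 and 27 positive. The median flox responses were then 0.26, 0.29 and 0.23.

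Below the threshold, several members with a small unadjusted p were carriers and electron-transfer proteins. Slc25a20, which carries acylcarnitines into mitochondria, read 7.34 to 7.38 and then 7.95 to 8.07 in flox, and 7.38 to 7.63 and then 8.54 to 8.76 in AKO. Cold minus RT was 0.64 in flox (adjusted p = 0.0876) and 1.19 in AKO (adjusted p = 0.00025), and the interaction 0.55 with an interval of 0.23 to 0.86 (adjusted p = 0.978). Slc25a42, the mitochondrial coenzyme A carrier, read 7.05 to 7.41 in AKO in the cold and 5.96 to 6.62 elsewhere (interaction 0.87, adjusted p = 0.844). Etfdh, which passes electrons from fatty acid oxidation to ubiquinone, rose by 0.93 in AKO (adjusted p = 0.00257) and had 0.48 in flox (adjusted p = 0.195), an interaction of 0.46. Of 15 uncoupling proteins and mitochondrial carriers 8 had a positive and 7 a negative interaction, and the list's median was 0.25. An unadjusted p under 0.05 was found for 6, all upward and Ucp1 among them, against 2.50% of all genes. With flox RT arrays 1 and 2 left out, 14 of the 15 interactions were positive and the median was 0.28.

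Glucose use gave smaller median cold responses than these mitochondrial lists, 0.17 in flox and 0.35 in AKO. The flox value was -0.01 without flox RT arrays 1 and 2. Of 20 glycolysis genes 14 had a positive interaction, with a median of 0.09. An unadjusted p under 0.05 was found for 2, both upward, against 2.50% of all genes. Pkm, pyruvate kinase, read 10.03 to 10.06 in AKO in the cold and 9.36 to 9.68 on the other 9 arrays, an interaction of 0.44 (adjusted p = 0.978). Pfkl, the liver form of phosphofructokinase, rose by 0.76 in AKO (adjusted p = 0.0189) and had 0.27 in flox (adjusted p = 0.515), an interaction of 0.49. The median interaction of this list was 0.28, with 18 positive, when flox RT arrays 1 and 2 were left out.

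The 20 genes listed for fatty acid and triglyceride synthesis had median responses of 0.60 in flox and 0.58 in AKO, and a median interaction of -0.04. In AKO 6 members were called upward, against 0.379% of all genes. Both the 20 and the 6 include Gys2, a glycogen synthase and not an enzyme of lipid synthesis. Without flox RT arrays 1 and 2 the median interaction turned to 0.13, with 14 positive against 9 on all arrays. Pck1, which makes phosphoenolpyruvate for glycerol synthesis in fat, was the member with an unadjusted p under 0.05 (interaction -0.52, unadjusted p = 0.0367, adjusted p = 0.978), with 0.55 in flox and 0.03 in AKO. Acly, which makes cytosolic acetyl-CoA from citrate, rose 2.30-fold in AKO (adjusted p = 0.0141), and its flox estimate was also 2.30-fold (adjusted p = 0.0876), so its interaction was 0.00 with an interval of -0.56 to 0.56. Me1, malic enzyme, had 1.22 in AKO (adjusted p = 0.0214) and 1.18 in flox (adjusted p = 0.0876), an interaction of 0.04 (-0.59 to 0.67). Dgat1, the last enzyme of triglyceride synthesis, had 0.87 and 0.91, an interaction of -0.04 (-0.45 to 0.37). Gys2, glycogen synthase, rose by 2.30 in AKO (adjusted p = 0.00592) and had 1.69 in flox (adjusted p = 0.10). These intervals span differences of 0.37 or more on the log2 scale, so that like responses are not shown. Left without flox RT arrays 1 and 2, the interactions were 0.23 for Acly, 0.51 for Me1, 0.13 for Dgat1 and 1.47 for Gys2, against 0.61 for Gys2 on all arrays.

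The 2 genes called in flox (0.00902% of those tested) had interactions that did not pass. Cox8b, another muscle and brown fat isoform of cytochrome c oxidase, read 6.11, 5.34 and 6.05 in flox at RT and 7.49, 8.39 and 7.98 in the cold. In AKO it read 6.50, 6.68 and 6.90 at RT and 8.86, 8.53 and 8.39 in the cold, where the highest flox and the lowest AKO array both rounded to 8.39 and the groups met without overlapping. It rose 4.34-fold in flox (adjusted p = 0.023) and 3.73-fold in AKO (adjusted p = 0.00531), with an interaction of -0.22 (-0.98 to 0.54) that was -0.00049 without flox RT arrays 1 and 2. Chchd10, a protein of the mitochondrial intermembrane space, rose by 1.30 in flox (adjusted p = 0.023) and by 1.72 in AKO (adjusted p = 0.000194). Its interaction was 0.42 with an interval of -0.02 to 0.86, and it was higher in AKO in the cold by 1.16 (adjusted p = 0.00377). Both flox calls were lost without flox RT arrays 1 and 2, when no gene was called in flox, although 1230 had an unadjusted p under 0.05. A dim-gene filter raised the flox count to 16.

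Over all genes the AKO and flox cold responses, which share no array, had a Pearson r of 0.33 and a Spearman rho of 0.24 across 22180 genes, which are not independent replicates, and 57.5% had the same sign. The typical response was of equal size, with a median of 0.126 in AKO and 0.127 in flox. In AKO 84 genes rose (0.379% of those tested) and 19 fell (0.0857%). Without AKO RT array 2 and AKO cold array 3, the arrays with high muscle markers, 19 genes were called in AKO, 17 of them among the 103, and without any single AKO array 40 to 59 were called. Of the 103 genes 98 had the same sign in flox, 81 of the 84 and 17 of the 19. Their median response, signed by the AKO direction, was 1.01 in AKO, where they were chosen, and 0.528 in flox. Conversely, the 103 genes with the smallest p in flox had a median of 0.734 there and 0.637 in AKO, and 100 of them had the same sign there. Each set was picked on the arrays of 1 genotype, which favours large values there. An interaction with an unadjusted p under 0.05 was found for 48 of the 103 AKO-called genes, against 1061 of all 22180, and one smaller in size than 0.25 for 22. The 103 were picked on the AKO response, which is itself a term of the interaction, and this favours a small interaction p. The 48 therefore do not measure how much of the AKO response depends on genotype.

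The 5 AKO-called genes whose flox estimate had the opposite sign were Slc27a2, Gm14057, Pla2g5, Lce3b and D430020J02Rik, and the flox estimate of the last 3 was between -0.08 and 0.08. Lce3b, a late cornified envelope gene, and D430020J02Rik were named after their values were seen.

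**Figure D3:**
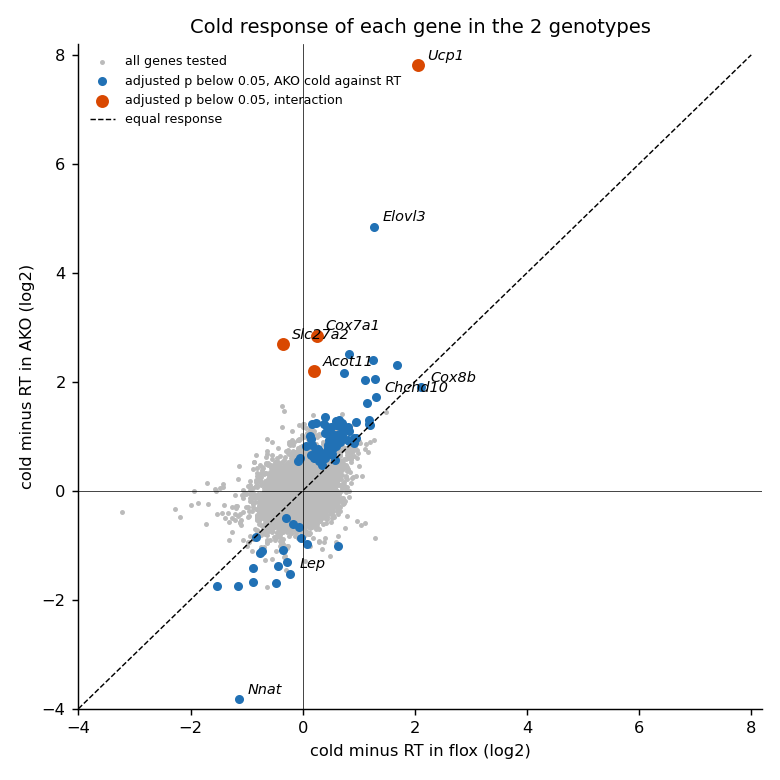
Cold minus RT (log2) of each of the 22180 genes in flox (horizontal) and AKO (vertical), with genes called in AKO and in the interaction coloured and a dashed line of equal response. Ucp1 lies at 2.06 and 7.81, Elovl3 at 1.27 and 4.85, Nnat at -1.14 and -3.83, and Cox8b close to the line at 2.12 and 1.90.

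None of the 12 largest negative interactions chosen by the naming rule, with an unadjusted p under 0.01, was called. Nnat, neuronatin, a small endoplasmic reticulum protein, had the largest of them. Nnat read 10.70, 9.51 and 10.29 in flox at RT, 8.78, 9.51 and 8.79 in flox in the cold, 9.82, 9.75 and 10.41 in AKO at RT and 5.81, 5.96 and 6.73 in AKO in the cold. The AKO cold arrays lay below the other 9, at 6.73 or less against 8.78 or more. It fell 14.2-fold in AKO (adjusted p = 0.00025) and had a 2.20-fold lower value in flox (adjusted p = 0.292), an interaction of -2.69 with an interval of -3.71 to -1.66 (adjusted p = 0.326). A second Nnat cluster, with a mean signal of 6.21, gave an interaction of -0.61.

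Lep, the hormone leptin, read 11.31, 11.38 and 11.37 in AKO at RT and 9.90, 10.06 and 9.55 in the cold, and 10.19 to 11.00 on the flox arrays. It fell in AKO by 1.52 (adjusted p = 0.0109) and the flox estimate was -0.22 (adjusted p = 0.808). The interaction was -1.30 with an interval of -1.98 to -0.62 (adjusted p = 0.844). AKO was the highest group at RT and the lowest in the cold, with RT and cold values of AKO on either side of the flox mean.

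Npr3, the clearance receptor that removes natriuretic peptides, followed the same course. It read 10.68, 10.65 and 11.02 in AKO at RT, 9.08, 9.08 and 9.09 in AKO in the cold, 10.34, 9.60 and 10.25 in flox at RT and 9.83, 9.68 and 9.25 in flox in the cold. AKO RT and AKO cold lay outside the flox range on opposite sides. It fell 3.24-fold in AKO (adjusted p = 0.00269), with a 1.39-fold lower value in flox (adjusted p = 0.481) and an interaction of -1.22 (-1.84 to -0.60, adjusted p = 0.844).

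Pla2g5, a secreted phospholipase A2, differed between genotypes at RT. Pla2g5 read 4.60, 4.39 and 4.19 in flox at RT, 4.73, 4.45 and 4.25 in flox in the cold, 6.30, 5.95 and 6.17 in AKO at RT and 5.24, 4.86 and 5.41 in AKO in the cold. It was 1.75 higher in AKO at RT (adjusted p = 0.0023) and 0.69 higher in the cold (adjusted p = 0.25), an interaction of -1.05 (adjusted p = 0.844). Timp4, an inhibitor of matrix metalloproteinases, read 8.84 to 9.05 in AKO at RT and 7.36 to 7.99 in the cold, with an interaction of -1.33 (adjusted p = 0.978). Ccdc80, a matrix protein named for its fall in AKO, fell in AKO by 1.31 (adjusted p = 0.00316), had -0.29 in flox (adjusted p = 0.637) and an interaction of -1.03 (adjusted p = 0.844). Hp, haptoglobin, fell by 1.43 in AKO (adjusted p = 0.00178) and had -0.88 in flox (adjusted p = 0.0876), an interaction of -0.54.

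Others of the most negative estimates belonged to small noncoding RNAs and Rpl3, a ribosomal protein gene. Snord58b, a small nucleolar RNA, read 4.30 to 4.42 in AKO in the cold, 4.89, 4.37 and 4.54 in flox at RT and 5.02, 5.86 and 6.05 in flox in the cold, and its interaction was -1.68 (adjusted p = 0.844). Snora44 had -2.14 and Snord73b -1.69 (adjusted p = 0.978 for both), with flox estimates of 1.28 and 1.10 and AKO estimates of -0.86 and -0.59. Rpl3 had -1.04, and -0.66 without flox RT arrays 1 and 2, where 2 other clusters of the gene gave 0.12 and 0.17.

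Among the 12 largest positive interactions, 4 had a negative flox estimate and an AKO estimate between -0.01 and 0.37. Hsph1, a heat shock protein, read 7.15, 7.37 and 6.16 in flox at RT and 5.61 to 6.36 on the other 9 arrays, an interaction of 1.15 that was 0.42 without flox RT arrays 1 and 2. Myd88, an adaptor of Toll-like receptors, had -0.72 in flox and 0.37 in AKO, an interaction of 1.10. Ifna4, an interferon gene, had -1.94 and -0.01, and Pdcd1lg2, an immune checkpoint ligand, -0.81 and 0.27. The adjusted p of all 4 was 0.978.

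Of 21 mature adipocyte genes 1 had a positive interaction, against 51.6% of all genes, with a list median of -0.16. An unadjusted p under 0.05 was found for 2, Nnat and Lep, both downward, against 2.29% of all genes. None was called in the interaction and 2 fell past the threshold in AKO, against 0.0857% of all genes. Most members were close to 0: Adipoq gave -0.15, Fabp4 -0.12, Retn -0.01 and Cidec -0.02, while Pparg gave -0.43, and -0.18 without flox RT arrays 1 and 2. With them left out, the list's median was -0.10 and 6 members were positive.

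Of 11 measured genes for receptors of hormones and of adrenergic and cholinergic signals, among them the melanocortin receptor partner Mrap, 1 had a positive interaction, and the median was -0.40 with or -0.42 without those 2 arrays. The members fell into separate patterns. Mc2r, the receptor for ACTH, was 1.16 higher in AKO at RT and 1.07 higher in the cold, where the response to cold was 0.07 in AKO and 0.16 in flox and the interaction -0.09 (-0.65 to 0.48). Oxtr, the oxytocin receptor, read 5.56, 4.24 and 5.16 in flox at RT and 5.60, 5.61 and 5.13 in the cold, against 7.42, 7.35 and 8.30 in AKO at RT and 7.45, 7.64 and 7.59 in the cold. AKO lay above flox at both temperatures with no overlap, and the interaction was -0.59 (-1.56 to 0.38). Kiss1r, the kisspeptin receptor, had -0.77 (-1.98 to 0.45), or -1.38 without AKO RT array 2 and AKO cold array 3, and Ghr, the growth hormone receptor, -0.50 (unadjusted p = 0.0146).

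**Figure D4:**
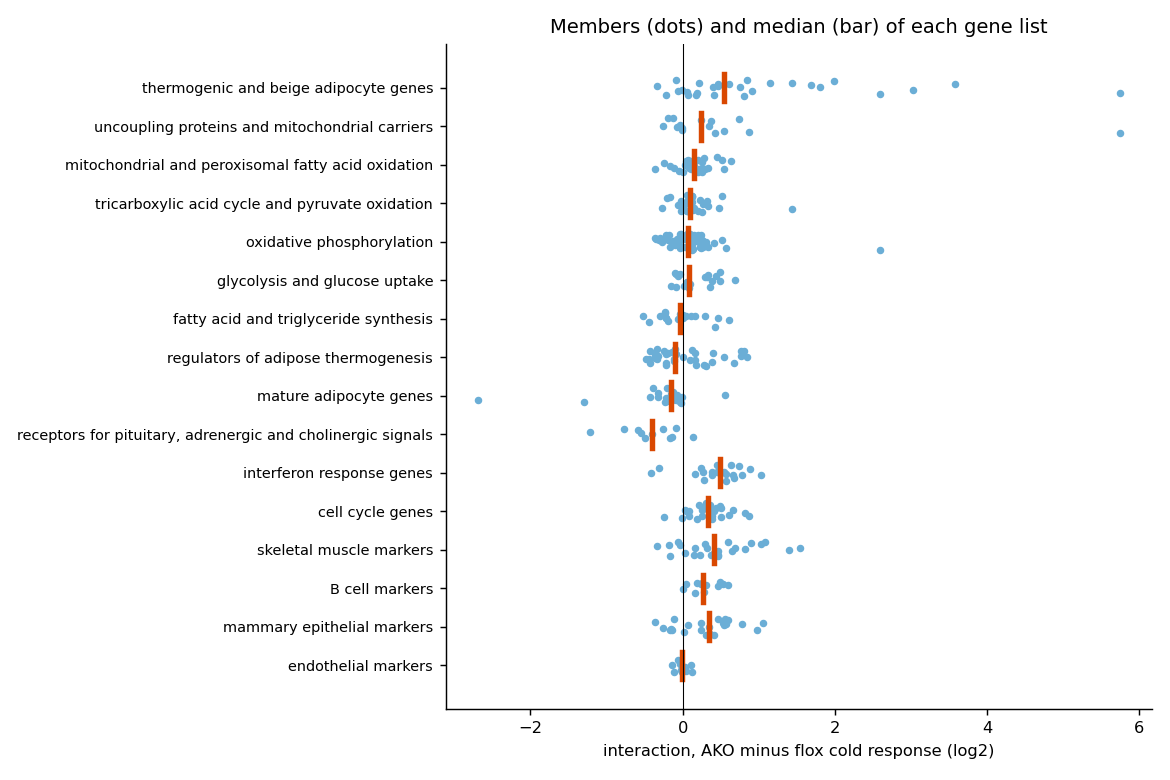
Interaction (AKO minus flox cold response, log2, horizontal axis) of each measured member of 16 gene lists, with the list median as a bar. Thermogenic genes have a median of 0.54, receptors -0.40 and mature adipocyte genes -0.16, and the interferon list, which moves with flox RT arrays 1 and 2, 0.50.

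A genotype difference need not be an interaction. AKO and flox differed in 32 genes at RT (0.144% of those tested) and in 47 in the cold (0.212%), and 16 were called at both temperatures, all 16 in the same direction. None of the 16 was called in the interaction, against 0.0180% of all genes, so that no call was likely in so small a set. Cidea was the 1 with an unadjusted p under 0.05, against 2.50% of all genes upward and 2.29% downward. The 16 were picked by calls at both temperatures on the same arrays, which favours like genotype differences. These counts therefore do not show that the 16 responded alike in both genotypes. Their interactions ran from -0.59 to 0.92. Plin5, a lipid droplet protein that contacts mitochondria, read 4.95, 4.59 and 4.63 in flox at RT, 5.44, 5.77 and 5.09 in flox in the cold, 6.64, 6.60 and 6.89 in AKO at RT and 7.76, 7.68 and 7.41 in AKO in the cold. It was 1.99 higher in AKO at RT and 2.18 higher in the cold, an interaction of 0.19 (-0.35 to 0.73), or 0.10 without flox RT arrays 1 and 2. Cyp2f2, a cytochrome P450, read 10.17 to 10.71 on the 6 flox arrays and 5.11 to 6.34 on the 6 AKO arrays, and its interaction was -0.26 (-1.14 to 0.62), or 0.27 without AKO RT array 2 and AKO cold array 3. Ffar2, which senses short chain fatty acids, read 6.17 to 6.82 in flox and 3.84 to 4.83 in AKO, with an interaction of 0.42 (-0.18 to 1.02). Plin5, Cyp2f2 and Ffar2 were named after their values were seen.

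**Figure D5:**
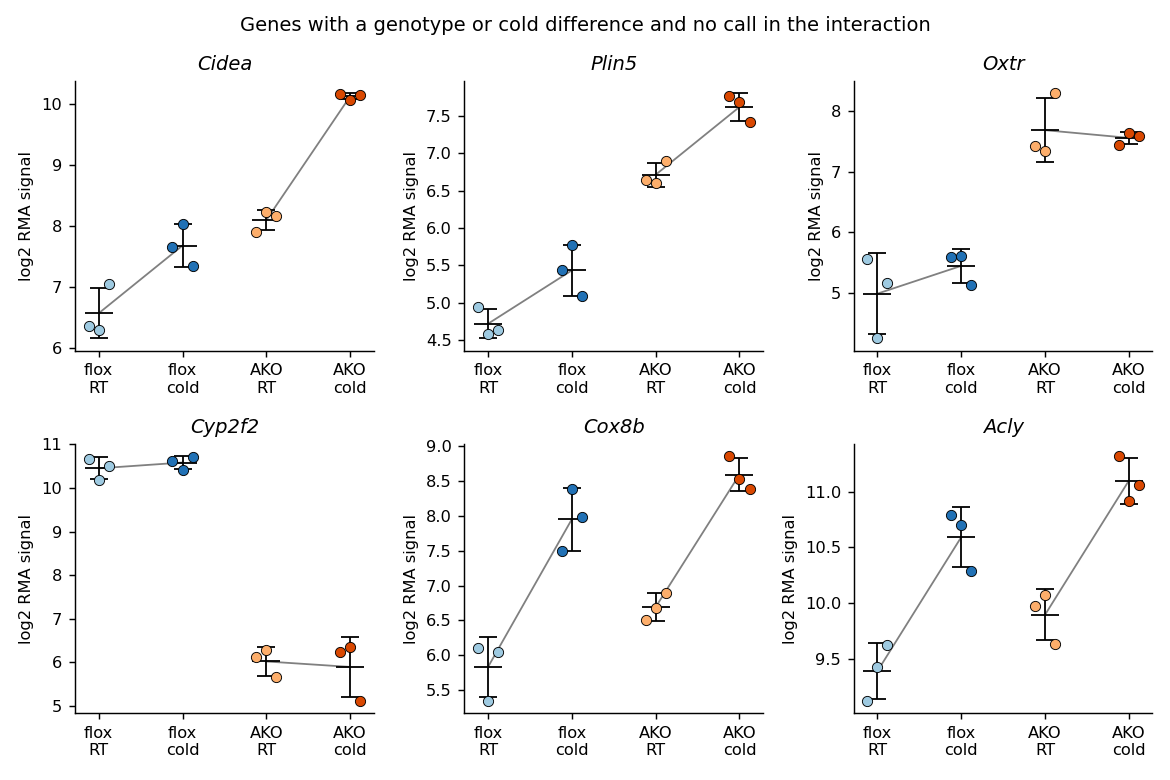
Signals (log2 RMA, vertical axis) of 6 genes on each of the 12 arrays, drawn as dots with the mean and SD (n = 3). Cidea, Plin5, Oxtr and Cyp2f2 differ between genotypes at both temperatures, whereas Cox8b and Acly read higher in the cold than at RT in both genotypes, with interactions of -0.22 and 0.00.

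Genes of other cells and of cell state also varied across the arrays, and their part in the interactions above was not tested. The 21 interferon response genes had a median interaction of 0.50, with 19 positive, none at an unadjusted p under 0.05, and median responses of -0.86 in flox and -0.40 in AKO. Their mean was 0.78, 1.12 and -0.38 in flox at RT and between -0.41 and 0.21 on the other 9 arrays. Without flox RT arrays 1 and 2 the median interaction was -0.36 with 1 member positive, and the median flox response was 0.02. The direction of the interaction therefore rests on those arrays. The same holds for the 23 mammary epithelial markers, with 0.34 and then -0.16, none at an unadjusted p under 0.05 with all arrays. Ptx3, an acute-phase protein named after its values were seen, had an interaction of 1.86 (unadjusted p = 0.0184) with 5.14, 5.45 and 2.93 in flox at RT and 2.65 to 3.25 elsewhere. The interaction was 0.29 without flox RT arrays 1 and 2.

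The 25 skeletal muscle markers had a median interaction of 0.42, with 20 positive and none at an unadjusted p under 0.05. Their per-array mean spread over -1.50 to 0.80 in flox at RT, -1.49 to 2.36 in AKO at RT, -1.38 to 0.76 in flox in the cold and -1.75 to 2.92 in AKO in the cold. Leaving out flox RT arrays 1 and 2 moved the median to 1.86. All 12 measured B cell markers had a positive interaction with a median of 0.27, and none had an unadjusted p under 0.05. That median was 0.51 with 11 positive once flox RT arrays 1 and 2 were left out. The per-array mean of the B cell list was -0.43, -0.47 and 0.67 in flox in the cold and -0.37, 0.16 and 0.38 in AKO in the cold. The 12 endothelial markers gave a median of -0.01, and 0.03 without flox RT arrays 1 and 2. The 17 macrophage and myeloid markers gave -0.0023 with 8 positive, and without those arrays -0.22 with 2 positive.

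Cell cycle genes were the remaining list with a shared sign. Of 28 measured, 26 had a positive interaction, against 51.6% of all genes, and the median was 0.33. An unadjusted p under 0.05 was found for 4, all upward, against 2.50% of all genes. Ccnb2, cyclin B2, read 4.75, 4.78 and 4.89 in AKO at RT and 5.13, 5.65 and 5.46 in the cold, against 5.14 to 5.77 in flox. The interaction was 0.82 (unadjusted p = 0.00243, adjusted p = 0.978), and AKO at RT was the low group. Without flox RT arrays 1 and 2 the list's median stayed at 0.33 with 23 positive. The 29 measured SWI/SNF subunits gave a median of -0.04 with 12 positive. Smarcd1 had an interaction of 0.18, or 0.50 without flox RT arrays 1 and 2, with -0.90 in a second, dimmer cluster, and Smarcd2, its paralog BAF60b, of 0.15.

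The other lists gave the following median interactions. The 17 genes of lipolysis and lipid droplets gave 0.05, the 14 of fatty acid uptake -0.10, the 24 of cyclic AMP and protein kinase A signalling -0.07, the 8 of the creatine cycle 0.13 and the 14 of calcium cycling 0.06. Of the 16 factors secreted by thermogenic fat, Kng2 at 1.80 and Igf1 at -0.45 had an unadjusted p under 0.05, and the median was 0.01. The 20 genes of the unfolded protein response gave 0.03, the 16 clock genes -0.10, the 23 progenitor and matrix genes -0.09, the 12 T cell markers 0.04 and the 12 Schwann cell and nerve genes -0.14. The 19 immediate early genes gave 0.24, and 0.02 without flox RT arrays 1 and 2. Without those arrays the uptake genes gave -0.03, the T cell markers 0.09 and the nerve genes -0.08. On the same 10 arrays the medians of the secreted factors (-0.06), the unfolded protein response (-0.07) and the clock genes (0.03) changed sign, and that of the progenitor and matrix genes was -0.25. None of these lists had a member called in the interaction other than Slc27a2, which is in the uptake list.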

How the data were processed

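The authors hybridised 400 ng of total RNA per array, labelled with an Affymetrix WT kit, and deposited 1 table of log2 values made by RMA (background correction, quantile normalization and summary per transcript cluster) in R 3.1.1. Neither the annotation nor a joint normalization of the 12 arrays is stated in the sources. RMA assumes that most genes keep their level and compresses differences near background. No detection p-values or scan batches were used, and the number of arrays limits the precision.

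The table held 41345 clusters. The platform table gave a single symbol to 23521 of them and more than 1 symbol to 1820, and did not list the other 16004. Where a gene had several clusters the brightest on average was kept, giving 22180 genes, of which 1082 had more than 1 cluster. A mean per group was fitted with limma 3.58.1 in R 4.3.3 (lmFit and eBayes, no trend), and the contrasts were the interaction, each cold response and the genotype difference at each temperature. P-values are two-sided, and calls had an adjusted p below 0.05. The fit was also run on simulated data with independent noise for each gene and array. Those data hold no arrays that stand apart, so the run does not bear on calls that depend on such arrays. The replicate arrays carry numbers but no stated pairing, and p-values measure the spread between pools of mice.

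The genes named are the BAF60 genes, those called in the interaction, the 12 largest interactions in each direction with an unadjusted p below 0.01 and a group mean above the median of the table, list members with the smallest interaction p or a called cold response, the largest cold responses and genes that the study names. The 30 gene lists and the members were chosen with earlier results of these data known. Alternatives were another centring, quantile normalization, a filter on dim genes, other handling of clusters, another variance model, array weights, a replicate block, muscle and B cell scores as covariates, other thresholds and leaving out each array. Leaving out flox RT arrays 1 and 2 together, and AKO RT array 2 with AKO cold array 3, was added after seeing the data.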

Additional observations from a re-analysis of the deposited data

Results flagged for a closer look

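In 4 genes the cold response differed between AKO and flox by the interaction test itself, with 3 arrays per group. Ucp1 differed by 5.75 on the log2 scale, Slc27a2 by 3.03, Cox7a1 by 2.59 and Acot11 by 1.99, all with the larger rise in AKO and with all 3 AKO cold arrays above the other 9.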

How the results depend on the processing

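The 4 genes called in the interaction kept their sign in all 27 alternatives and their call in all but 2. The ordinary linear model without moderation called 0 genes in the interaction (1084 at an unadjusted p below 0.05), 0 in the flox cold response and 53 in that of AKO, and gave the 4 genes an adjusted p of 0.0923. Leaving out flox RT arrays 1 and 2 together ended the call of Ucp1 (adjusted p = 0.0647) and left 0 genes called in flox. Leaving out AKO RT array 2 and AKO cold array 3 together left 0 in flox and 19 in AKO. Leaving out single arrays gave 4 to 13 genes in the interaction, 0 to 104 in flox and 40 to 123 in AKO, where leaving out any one of the 6 AKO arrays gave 40 to 59. The 13 and the 104 came without flox RT array 3, and Ccl2, Hspa1a and Ptx3 then passed (adjusted p = 0.0272, 0.0317 and 0.00501). In flox, a dim-gene filter gave 16 genes, the trend and robust fit 50, both covariates 0 and an adjusted p below 0.1 gave 25. In AKO these were 202 for the dim-gene filter, 212 for the trend and robust fit, 208 for array weights and 235 for an adjusted p below 0.1. Elovl3 and Gm14057 crossed the threshold under several settings, Elovl3 with an adjusted p of 0.0488 under the dim-gene filter. The replicate block gave 6 genes in the interaction, 1 in flox and 74 in AKO. Arrays with the same number showed no shared deviation (r = -0.237 to 0.283 in 18 pairs, against -0.441 to 0.401 in 36 other pairs). A pairing with little effect on the signals would not show in these values, so whether the numbers pair the samples stays undecided.

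Some estimates changed sign, most of them near 0. Ccl2, at 1.65 with all arrays, had -0.40 without flox RT arrays 1 and 2. Acly had -0.0366 after centring, -0.0053 after quantile normalization, -0.0525 with array weights and -0.0176 with the muscle covariate, and -0.15 to 0.13 with single arrays left out. With both covariates Dgat1 had 0.0177 and Mc2r 0.0356. Without flox RT arrays 1 and 2 Dgat1 had 0.13, without AKO RT 2 and AKO cold 3 Dgat1 had 0.0252 and Cyp2f2 0.27, and Smarcd1 had -0.36 with its clusters averaged. With single arrays left out Cox8b ran from -0.45 to 0.0278, Cyp2f2 from -0.48 to 0.13, Dgat1 from -0.16 to 0.0598, Mc2r from -0.26 to 0.0902 and Me1 from -0.20 to 0.24. The causes were not tested. Of the 1673 fits for the 62 genes named, 28 changed the sign. The dim-gene filter gave no value for Ptx3. Signals below the table's median limit the folds of Ucp1, Elovl3 and Slc27a2.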
